A study of Mus musculus with 2 samples.

Results

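The genes described here encode the subunits of RNA polymerase II (Pol II) and of the Mediator complex. They were taken by name: every protein-coding gene of GENCODE M21 called Med followed by a number, with or without a final l, or Polr2 followed by a letter from a to m. This gave 43 genes, 30 of Mediator and 13 of Pol II, among 22028 protein-coding genes and 55536 annotated genes in all. The naming rule uses no measured value, though it was set with earlier results of these data known.

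Pol II is the enzyme that transcribes protein-coding genes. Its largest subunit carries a long C-terminal repeat domain (CTD), whose phosphorylation accompanies the passage from initiation to elongation. Mediator is a large assembly that bridges transcription factors bound at enhancers and Pol II at promoters. It is described as head, middle and tail modules joined by a backbone subunit, with a separable kinase module that holds a cyclin-dependent kinase. In macrophages, which answer bacterial products with rapid waves of transcription, both complexes act at the induced inflammatory genes.

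RNA was sequenced from the nucleoplasmic fraction of macrophages that were grown from C57BL/6J mouse bone marrow and given Lipid A, the TLR4-binding portion of lipopolysaccharide, at 100 ng/ml for 40 min. Ribosomal RNA was depleted before sequencing. Biological replicates 1 and 2 formed the only group, so the values below are levels and not responses, and no test between conditions could be made. Both libraries bear the same donor identifier, the RNA input was 1 µg for replicate 1 but 500 ng for replicate 2, and sex and age were not collected. Whether animals were pooled is not stated in the labels. The ± values are SDs over these 2 replicates and may hold less than the spread between animals. Input amount and replicate cannot be told apart.

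The replicates held 19630046 and 18434601 expected counts, of which the 43 genes took 26772 (0.136%) in replicate 1 and 28371 (0.154%) in replicate 2. Levels are given in TPM, a measure of transcript abundance that divides counts by effective model length and scales each library to a fixed sum. Small structural RNAs took 58.1% of that sum in replicate 1 and 70.6% in replicate 2, and protein-coding genes took 31.2% and 22.6%. TPM was lower in replicate 2 in general: over the detected protein-coding genes the median was 8.64 TPM in replicate 1 and 6.12 TPM in replicate 2. All 7 macrophage markers were detected, between 20.4 ± 15.3 TPM for Fcgr1 and 1542 ± 393 TPM for Lyz2. By alignment-based TPM, none of 10 markers of other blood, stromal and vascular cells was detected. The highest of them, the neutrophil gene S100a9, had 1.10 ± 0.332 TPM. In the FASTQ-derived tables, also deposited, the vascular gene Pecam1 had 2.58 TPM in replicate 1 and 5.24 TPM in replicate 2. No other marker of the 10 reached 1 TPM there. Because the libraries were made from bulk RNA, fewer cells that express a gene and less of its RNA per cell cannot be told apart.

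Most of the subunit genes were present in the fraction at low levels. Taking at least 1 TPM in both replicates as detected, 36 of the 43 genes (83.7%) passed, against 40.0% of all protein-coding genes. The count moved with the scaling of TPM: with each library scaled over nuclear-encoded protein-coding genes, 42 of the 43 passed and only Med18 did not, against 50.3% of all protein-coding genes. By FASTQ-derived values, 31 passed, against 41.4%. The calls of single genes as not detected, given below, therefore hold for the deposited alignment-based TPM. Their median was 3.30 ± 1.63 TPM, against 0.315 ± 0.0919 TPM over all protein-coding genes and 7.38 ± 1.78 TPM over the 8810 detected ones. Only 11 of the 43 lay above that last median, 9 averaged at least 10 TPM, and 15 averaged under 2 TPM. The highest and the lowest subunit RNA differed 480-fold in replicate 1 and 282-fold in replicate 2, and 205-fold and 175-fold in the FASTQ-derived tables. TPM was lower in replicate 2 for 39 of the genes.

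**Figure D1:**
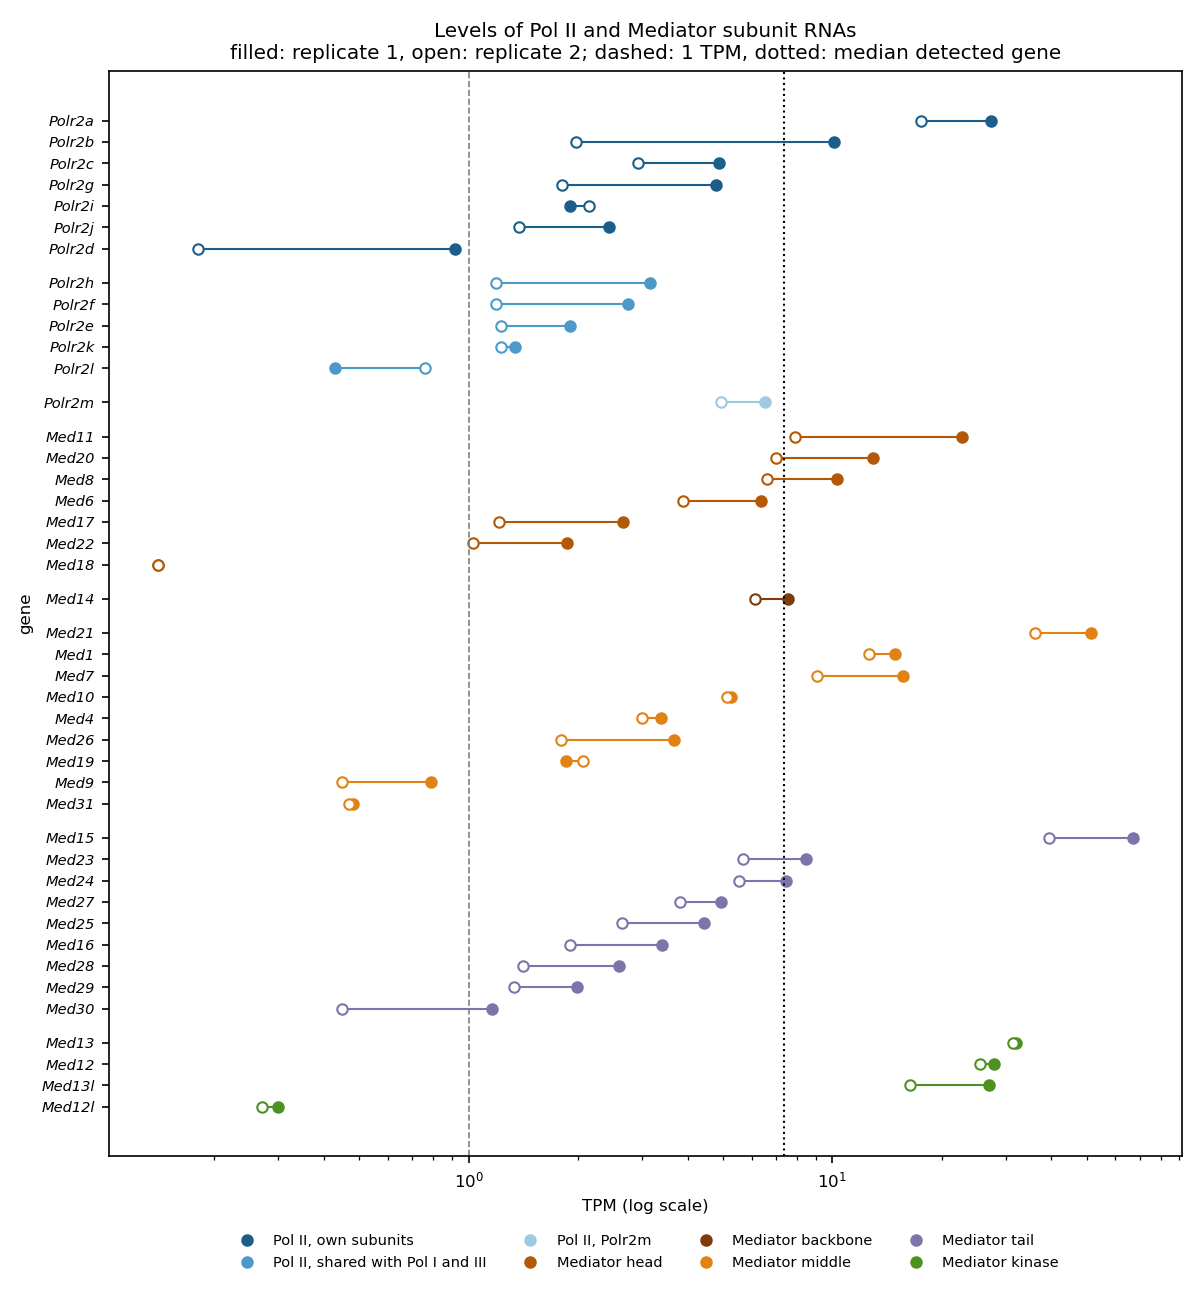
Level of each Pol II and Mediator subunit RNA in TPM on a log scale, with replicate 1 as a filled and replicate 2 as an open circle joined by a line, grouped by complex and module. Only 11 genes average above the dotted line, the median detected protein-coding gene at 7.38 TPM, and 7 fall to the left of the dashed line at 1 TPM in at least 1 replicate.

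Among the subunits that belong to Pol II alone, the catalytic largest subunit stood far above the rest. Polr2a (RPB1, bearer of the CTD; chromosome 11, 69733997 to 69758637, minus strand) had 27.3 TPM in replicate 1 and 17.5 TPM in replicate 2, from 3186 and 2744 expected counts. Polr2b (RPB2), which forms the opposite side of the active-site cleft, had 10.1 and 1.98 TPM. Most of the gap of Polr2b lay in a single short transcript model, Polr2b-203, and the counts of the gene were close at 233 and 201. Polr2c (RPB3) and Polr2j (RPB11) form a dimer on which the enzyme assembles. Polr2c had 4.89 and 2.92 TPM, and Polr2j had 2.43 and 1.38 TPM. Polr2i (RPB9), a subunit with a role in transcriptional fidelity, had 1.90 and 2.15 TPM.

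The stalk of Pol II is a dimer of RPB4 and RPB7, and the levels of its genes lay apart in both libraries. Polr2g (RPB7) had 4.79 and 1.81 TPM, while Polr2d (RPB4) had 0.920 TPM in replicate 1 and 0.180 TPM in replicate 2. The values for Polr2d rested on 16 and 4 counts, with 95% Poisson intervals of 9.15 to 26.0 and of 1.09 to 10.2 counts. These intervals, like all others here, cover counting error only. The gene was not detected by the 1 TPM criterion.

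The 5 subunits that Pol II shares with Pol I and Pol III had the lowest median of the Pol II and Mediator groups, 1.54 ± 0.502 TPM, with 4 of the 5 detected. Polr2h (RPB8) had 3.15 TPM in replicate 1 and 1.19 TPM in replicate 2. Polr2f (RPB6) had 2.75 and 1.19 TPM, Polr2e (RPB5) 1.90 and 1.23 TPM, and Polr2k (RPB12) 1.34 and 1.23 TPM. Polr2l (RPB10) was not detected, with 0.430 and 0.760 TPM. Its reads are uncertain: Polr2l exons match the transcripts of Usp50 over 382 nt at 99.7% identity, and Polr2l was assigned 13.3 and 31.1 counts against 79.1 and 63.0 for Usp50.

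Polr2m encodes Gdown1, a protein that binds a fraction of Pol II and makes its activity dependent on Mediator. Its RNA was among the higher ones of the polymerase group, at 6.55 and 4.93 TPM. Ordered by deposited TPM, the 13 Pol II genes had ranges over the replicates separate from that of the next gene at 3 of 12 steps. These were Polr2a from Polr2b, Polr2m from Polr2c, and Polr2k from Polr2l. The ranges of the other neighbours overlapped. Because TPM was lower in replicate 2 for most genes, the order within each library was also compared, and 6 of the 12 steps ran the same way in both.

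Mediator RNAs lay somewhat higher than those of Pol II as a group. The Pol II genes had a median of 2.06 ± 0.969 TPM with 11 of 13 detected, and the Mediator genes had a median of 4.47 ± 0.887 TPM with 25 of 30 detected. On the log2(TPM + 1) scale the difference of medians, Pol II minus Mediator, was -0.70 in replicate 1 and -1.03 in replicate 2, a mean of -0.86 ± 0.23. Counting protein-coding transcript models alone, an alternative chosen after the data were seen, brought it to -0.45.

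The kinase module gave the highest levels of any module, with a median of 24.2 ± 4.56 TPM over 4 genes. Med13, which links the kinase module to core Mediator, had 32.0 TPM in replicate 1 and 31.3 TPM in replicate 2. Med12, the activator of the module's kinase, had 27.9 and 25.5 TPM. Their paralogues fared differently. Med13l had 26.9 and 16.4 TPM, so that Med13 stood above it by 0.24 and 0.89 on the log2(TPM + 1) scale. Med12l was not detected, at 0.300 and 0.270 TPM, and Med12 stood above it by 4.47 and 4.38 on that scale, or 92.9-fold and 94.3-fold in TPM.

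The kinase and cyclin of the module lie outside the naming rule and are given for completeness. Cdk8 had 13.6 ± 3.35 TPM and its paralogue Cdk19 had 3.33 ± 1.15 TPM, a gap of 1.72 and 1.80 on the log2(TPM + 1) scale in replicates 1 and 2. Ccnc, which encodes their cyclin partner, had only 2.04 ± 0.0283 TPM. Thus the 3 large kinase-module genes Med12, Med13 and Med13l each exceeded the cyclin in both libraries.

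Summed over all transcript models, the middle module held both highly abundant and undetected RNAs. Med21, part of the hinge between middle and head (chromosome 6, 146642547 to 146650732, plus strand), had 51.5 TPM in replicate 1 and 36.1 TPM in replicate 2. Its hinge partner Med7 had 15.6 and 9.06 TPM. Med1, the subunit contacted by nuclear receptors, had 14.9 and 12.6 TPM. Med10 followed with 5.26 and 5.14 TPM and Med4 with 3.39 and 3.0 TPM. Med26, which recruits elongation factors, had 3.68 and 1.80 TPM, and Med19 had 1.85 and 2.06 TPM. Med9 and Med31, both small subunits, were not detected: Med9 had 0.790 and 0.450 TPM and Med31 had 0.480 and 0.470 TPM, from 9 and 11 counts.

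In the head, which contacts Pol II most directly, Med11 had 22.7 TPM in replicate 1 and 7.91 TPM in replicate 2, from 331 and 149 counts. It led the module in both libraries. Med20 had 12.9 and 6.99 TPM, Med8 10.3 and 6.60 TPM, and Med6 6.35 and 3.88 TPM. Med17, the central scaffold of the head, had 2.66 and 1.21 TPM, and Med22 had 1.86 and 1.03 TPM. Med18 was the lowest of all 43 genes, at 0.140 TPM in both replicates from 2 and 3 counts. In the FASTQ-derived tables it had 0.446 and 0.539 TPM, and Med12l was the lowest with a mean of 0.254 TPM. The Med18 protein pairs with that of Med20 in the movable jaw of the head. Their RNAs lay far apart in deposited TPM summed over all transcript models. Over protein-coding models alone, Med20 had 2.82 and 1.69 TPM, and Med18 kept 0.140 TPM in both replicates. In the FASTQ-derived tables Med20 had 5.72 and 4.15 TPM, of which the coding model Med20-201 took only 13.3% and 16.2%. The backbone gene Med14, on the X chromosome, had 7.56 and 6.15 TPM.

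The tail module, the usual landing place of activators, held the highest gene of the set when all transcript models were summed. Med15, a target of the sterol-responsive factor SREBP (chromosome 16, 17651208 to 17732891, minus strand), had 67.2 TPM in replicate 1 and 39.5 TPM in replicate 2. No other tail gene came near it. Over protein-coding models alone, Med13 ranked first with a mean of 27.5 TPM and Med15 followed with 19.2 TPM. Med23, a contact of the Ras-responsive factor ELK1, had 8.47 and 5.70 TPM, Med24 7.45 and 5.55 TPM, and Med27 4.94 and 3.81 TPM. Med25, the target of the herpesvirus activator VP16, had 4.45 and 2.65 TPM and Med16 had 3.40 and 1.90 TPM. Med28 had 2.59 and 1.41 TPM and Med29 had 1.99 and 1.33 TPM. Med30 was not detected, because its 1.16 TPM in replicate 1 stood beside 0.450 TPM in replicate 2, from 20 and 10 counts. The group medians were 5.12 ± 1.75 TPM for the head, 3.34 ± 0.481 TPM for the middle and 3.55 ± 1.27 TPM for the tail.

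The precision of these levels differed between genes. Both replicates gave at least 100 expected counts for 22 of the genes, while 13 had under 50 in both. With each library scaled over nuclear-encoded protein-coding genes, the ranges of neighbouring Mediator genes were separate at 13 of 29 steps. By deposited TPM they were separate at fewer steps. In the order by mean deposited TPM, 17 of the 29 steps ran the same way within both libraries. The order itself was alike in the libraries, with a Spearman correlation of 0.98 over the 30 Mediator genes and 0.77 over the 13 Pol II genes. These are descriptions across genes that share each library, and genes are not independent replicates.

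Features of the gene models ran along with the level to a moderate degree. Over the 43 genes, mean TPM had a Spearman correlation of 0.60 with the number of annotated transcript models, 0.47 with the number of exons of the leading coding model, 0.42 with the genomic span and -0.16 with the GC content of that model. For span, the value was 0.58 over the 13 Pol II genes and 0.26 over the 30 Mediator genes, against 0.27 over all protein-coding genes and 0.14 over the detected ones. The points share both libraries, and TPM of a gene is a sum over its models, so these values are descriptions only.

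The other genes of the transcription machinery had list medians on both sides of the 3.30 TPM of the 43 genes. The general transcription factors, which build the preinitiation complex with Pol II and Mediator, had a median of 3.56 ± 1.20 TPM with 15 of 18 detected. They ran between 38.3 ± 13.6 TPM for Gtf2b and 0.755 ± 0.106 TPM for Gtf2h3. All 17 pausing and elongation factors were detected, with a median of 8.90 ± 2.28 TPM. Cdk9, the kinase that releases paused Pol II, led them with 76.4 ± 21.9 TPM, and Supt4a was lowest with 1.96 ± 0.382 TPM. The CTD kinases and phosphatases had a median of 9.59 ± 0.530 TPM with 8 of 9 detected, from Cdk12 at 72.5 ± 1.84 TPM to Ctdspl at 1.06 ± 0.170 TPM. Factors that assemble Pol II had a median of 1.95 ± 0.764 TPM with 4 of 6 detected, between Pdrg1 at 6.15 ± 0.219 TPM and Rpap3 at 0.615 ± 0.0919 TPM.

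**Figure D2:**
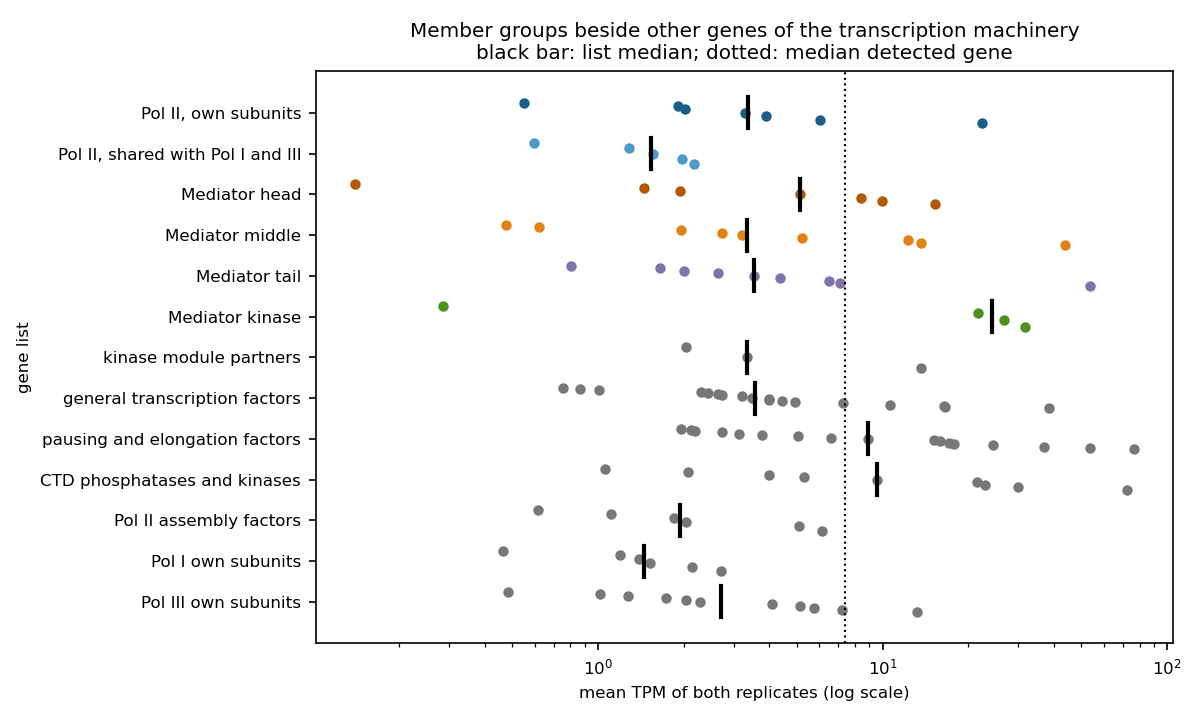
Mean TPM of both replicates on a log scale for the genes of each Pol II and Mediator group (coloured) and of other lists of the transcription machinery (grey), with black bars for list medians and a dotted line for the median detected protein-coding gene. The kinase module at 24.2 TPM has the highest median, and the shared polymerase subunits at 1.54 TPM lie near the Pol I list at 1.45 TPM.

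Nuclear RNA holds incompletely spliced transcripts, and GENCODE lists many such forms as retained-intron models. Of the 43 genes, 24 have such a model, 19 of Mediator and 5 of Pol II, with 59 models in all. Of these models, 24 keep a whole intron of a coding model, 19 run from an exon into the start of an intron, and 16 have another structure. At least 1 TPM in both replicates was assigned to 17 of them.

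Retained-intron models took 30.1% ± 2.05 of the summed TPM of the 43 genes, against 24.7% ± 0.324 over nuclear-encoded protein-coding genes. By expected counts the order turned round, with 15.8% ± 1.88 for the 43 genes and 16.9% ± 0.317 for the nuclear-encoded genes. The share of TPM was 10.3% ± 5.88 for Pol II and 33.6% ± 1.86 for Mediator, and by counts it was 1.41% ± 0.0361 and 18.2% ± 2.56. Over only those genes that have such a model, the share of TPM was 35.3% ± 14.8 for Pol II, 39.5% ± 2.22 for Mediator and 35.1% ± 0.757 for all protein-coding genes. By counts over the same genes it was 13.2% ± 0.513 for Pol II, 20.6% ± 3.20 for Mediator and 24.4% ± 0.589 for all protein-coding genes.

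In 3 of the 24 genes, 12.5%, retained-intron models took over 50% of TPM in both replicates. The same held for 12.6% of the 5736 detected protein-coding genes with such a model. The 3 were Med20, with 78.2% in replicate 1 and 75.8% in replicate 2, Med21, with 71.2% and 55.9%, and Med24, with 53.8% and 58.8%. Med15, the highest gene of the set, lay at the threshold with 49.5% and 51.2%. At the other end stood Med23 with 6.14% and 2.63%, Polr2i with 0% and 12.1% and Med27 with 0% and 12.1%. By the FASTQ-derived tables, the threshold was passed by 6 genes: Med4, Med16, Med20, Med21, Polr2b and Polr2f. The share of all protein-coding genes past it was not computed for those tables, so the 6 have no background value. Med24 did not pass there, with 51.2% and 47.0%, and Med23 was no longer at the low end, with 25.4% and 35.0%.

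The junctions of 5 such models are printed to show what separates a retained from a spliced read. Each pair begins with the last 20 bases of the exon in lower case. Capitals mark what follows it: 40 bases of the intron in the retained-intron model, or 20 bases of the next exon in the spliced model. The sequences come from the GENCODE M21 transcripts on mm10, and each intron opens with GT, the usual 5′ splice site.
Med15-209 at the retained intron: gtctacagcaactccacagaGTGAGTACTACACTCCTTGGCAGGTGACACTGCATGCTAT
Med15-201 across the junction: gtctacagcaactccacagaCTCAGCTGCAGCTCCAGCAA
Med21-206 at the retained intron: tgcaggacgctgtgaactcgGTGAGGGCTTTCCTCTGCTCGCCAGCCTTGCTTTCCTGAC
Med21-201 across the junction: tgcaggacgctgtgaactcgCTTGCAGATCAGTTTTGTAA
Med20-203 at the retained intron: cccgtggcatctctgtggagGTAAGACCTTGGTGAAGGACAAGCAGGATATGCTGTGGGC
Med20-201 across the junction: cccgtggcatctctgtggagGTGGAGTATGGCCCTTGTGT
Med24-204 at the retained intron: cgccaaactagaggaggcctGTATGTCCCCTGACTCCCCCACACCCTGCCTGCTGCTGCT
Med24-201 across the junction: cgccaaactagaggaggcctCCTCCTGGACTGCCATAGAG
Med12-209 at the retained intron: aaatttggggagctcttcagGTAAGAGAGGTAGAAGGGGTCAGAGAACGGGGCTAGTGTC
Med12-203 across the junction: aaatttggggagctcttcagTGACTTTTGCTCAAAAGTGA

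These windows lie at chr16:17680509-17680568 (minus strand) for Med15-209, chr6:146642633-146642692 (plus) for Med21-206, chr17:47619043-47619102 (plus) for Med20-203, chr11:98717870-98717929 (minus) for Med24-204 and chrX:101283780-101283839 (plus) for Med12-209. Med20-203, Med24-204 and Med12-209 keep a whole intron, of 3822, 1384 and 346 bases. Med15-209 ends within its intron, after 2582 of 5890 bases, and Med21-206 after 1321 of 5512 bases. The tables do not show where within a model its reads lay.

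Med21-206 alone was assigned 24.3 TPM in replicate 1 and 11.1 TPM in replicate 2, from 622 and 371 counts, whereas the coding model Med21-201 had 6.79 and 7.51 TPM. A further Med21 model, Med21-202, had 12.4 and 9.09 TPM. Med15-209 had 9.76 and 7.84 TPM beside 15.2 and 10.9 TPM for the coding Med15-201. Med20-203 had 4.44 and 2.65 TPM beside 2.82 and 1.69 TPM for Med20-201, and Med24-204 had 3.22 and 2.40 TPM beside 2.65 and 2.00 TPM for Med24-201. Med12-209, only 802 nt long, had 4.20 and 7.17 TPM and exceeded the full-length Med12-203 in replicate 2, where Med12-203 had 7.04 TPM.

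Short models weigh heavily in TPM when few reads are assigned to them. Polr2b-203, of 261 nt, received 10.4 counts in replicate 1 and 0 in replicate 2, which made 7.16 TPM and 0 TPM. The coding model Polr2b-201 received 218 and 198 counts, or 2.58 and 1.76 TPM. The retained-intron share of Polr2b was therefore 74.5% and 11.1% of TPM but 6.32% and 1.61% of counts. Polr2e showed the opposite gap, with 37.9% of TPM in replicate 1 and 95.1% in replicate 2, on only 45 and 32 counts for the gene. Med10 went the other way between measures: 31.2% and 43.5% of its TPM but 72.0% and 78.4% of its counts lay in such models.

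**Figure D3:**
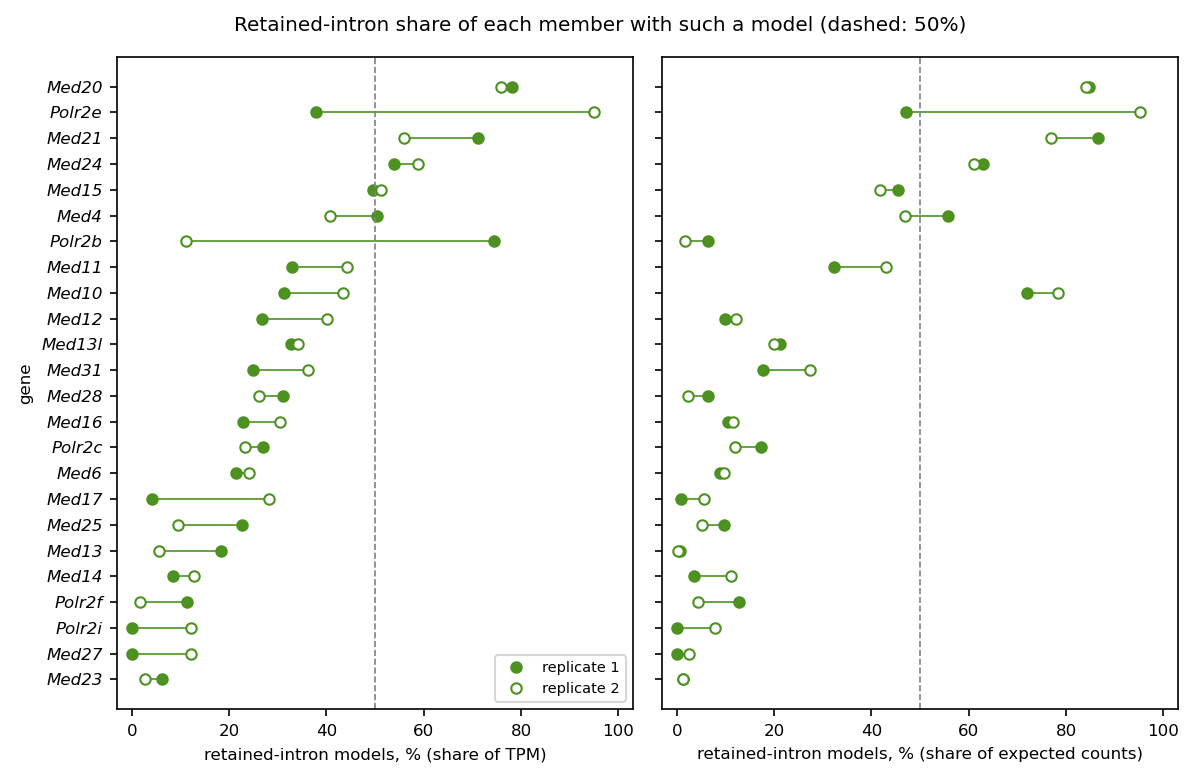
Share of each gene's TPM (left) and expected counts (right) in retained-intron models, in percent, for the 24 subunit genes that have one, with replicate 1 filled and replicate 2 open. Med20, Med21 and Med24 lie beyond the dashed 50% line in both replicates on both panels. Polr2e is far apart between replicates on both panels, and Polr2b only on the TPM panel.

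The model with the highest TPM was the same in both replicates for 33 of the 43 genes. In 30 of these it was a protein-coding model, and in 3, Med20, Med21 and Med24, a retained-intron model. The leading model differed between the replicates for Med8, Med12, Med12l, Med27, Med28, Polr2b, Polr2e, Polr2h, Polr2j and Polr2k. Across both replicates of both kinds of table, alignment-based and FASTQ-derived, 21 genes kept 1 leading model.

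Position and sequence shared with other genes limit several of these values. The strand setting of the counting is not given in the sources used here, so reads from overlapping genes cannot be told apart. Of the 43 genes, 22 share exon positions with another annotated gene, 19 with a gene on the opposite strand and 4 with a gene on the same strand. The largest overlap was that of Med10 with the long non-coding RNA gene Gm26819, 4168 bp on the opposite strand, and Med10 was assigned 196 and 263 counts against 205 and 176 for Gm26819. Med19 overlaps Zdhhc5 by 246 bp, and Med19 had 73.5 and 108 counts against 955 and 958 for Zdhhc5. Med26 overlaps the antisense gene Gm17435 by 381 bp, and Med26 had 221 and 143 counts against 442 and 331 for Gm17435. Med13 overlaps Brip1os by 800 bp, with 5850 and 8573 counts for Med13 against 668 and 647 for Brip1os.

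The models that carry the high retained-intron shares of Med20 and Med21 include processed pseudogenes. Med20-203 contains 1569 bp of Kpna2-ps within its 5680 nt, and Med20 also shares 513 bp on its own strand with Gm20517, which was assigned 80.7 and 73.9 counts. Med21-202 contains 348 bp of Gm6654, and its sequence matches the ribosomal protein gene Rps26 over 435 nt at 97.5% identity. Med21-206 does not overlap that pseudogene. It had more counts than Med21-202 in replicate 1, 622 against 401, but fewer in replicate 2, 371 against 386. Matches of at least 200 nt at 95% identity or more to a gene elsewhere were found for 8 of the genes: Med4, Med20, Med21, Med23, Polr2c, Polr2h, Polr2k and Polr2l. Apart from those of Med20, Med21 and Polr2l, each matching gene was assigned at most 3 counts in either replicate.

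Other overlaps were those of Polr2c with Dok4 (953 bp), Med7 with 2310031A07Rik (609 bp), Med31 with 4930563E22Rik (455 bp), Polr2i with Tbcb (325 bp), Polr2f with 1700088E04Rik (245 bp), Med15 with Gm18335 (223 bp), Med21 with Tm7sf3 (197 bp) and Polr2j with Lrwd1 (176 bp), all on opposite strands. Med12 shares 749 bp on its own strand with Gm21986, which had 33.6 and 34.3 counts. Med12l shares 1948 bp with Igsf10 on the opposite strand, which had 1.39 and 0 counts. The overlaps of Med13l, Med27, Med29, Polr2b and Polr2h with opposite-strand genes were of 55 to 145 bp, and those of Med23 and Med24 were with an snRNA and a snoRNA gene at 0 counts.

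The replicates were compared on expected counts scaled by edgeR's TMM method. The 42 genes with a mean of at least 10 counts had a median log2 ratio, replicate 1 over replicate 2, of 0.01, with 21 higher in replicate 1 and 21 higher in replicate 2. Protein-coding genes treated in the same way had a median of -0.02, and 5% to 95% of them lay between -0.61 and 0.66. On the log2(TPM + 1) scale 39 of the 43 genes were higher in replicate 1, with a median of 0.50, against 8086 of 8810 detected protein-coding genes and a median of 0.41. TMM centres the ratio of most genes near 0, so the TMM ratios place the subunits relative to other genes and do not bear on a shift common to all.

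A difference of at least 2-fold was seen for 4 of the 42 genes (9.52%), against 2.81% of protein-coding genes. They were Polr2d with a log2 ratio of 1.51 on 16 and 4 counts, Polr2h with 1.13 on 47 and 19 counts, Med11 with 1.04 on 331 and 149 counts, and Polr2l with -1.23 on 13 and 31 counts. Only Med11 among them had at least 100 counts in both replicates, and its 95% counting interval ran from 0.77 to 1.34. The counting interval excluded a ratio of 1 for 17 of the 42 genes (40.5%), close to the 39.8% of protein-coding genes with enough counts. For the best-counted gene, Med13, the ratio was -0.65 with an interval of -0.70 to -0.60. For Polr2a it was 0.12, from 0.04 to 0.19.

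By module, the ratio was above 0 for the 6 head genes with enough counts, with a median of 0.31, and the counting interval excluded 0 for 3 of them. It was below 0 for the 4 kinase-module genes, with a median of -0.26, and the interval excluded 0 for Med12 and Med13 but not for Med12l and Med13l. The ratio of Med13l, -0.01, lay at the protein-coding median of -0.02. Of the 11348 protein-coding genes compared, 5421 had a ratio above 0 and 5927 below. The middle had 3 ratios above and 6 below 0, and the tail 4 above and 5 below. Below 0 the next largest ratios after Polr2l were those of Med28 at -0.75, Med13 at -0.65 and Med19 at -0.63. With 1 library per replicate there is no error for these ratios beyond counting, and the part of RNA input in them was not tested.

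**Figure D4:**
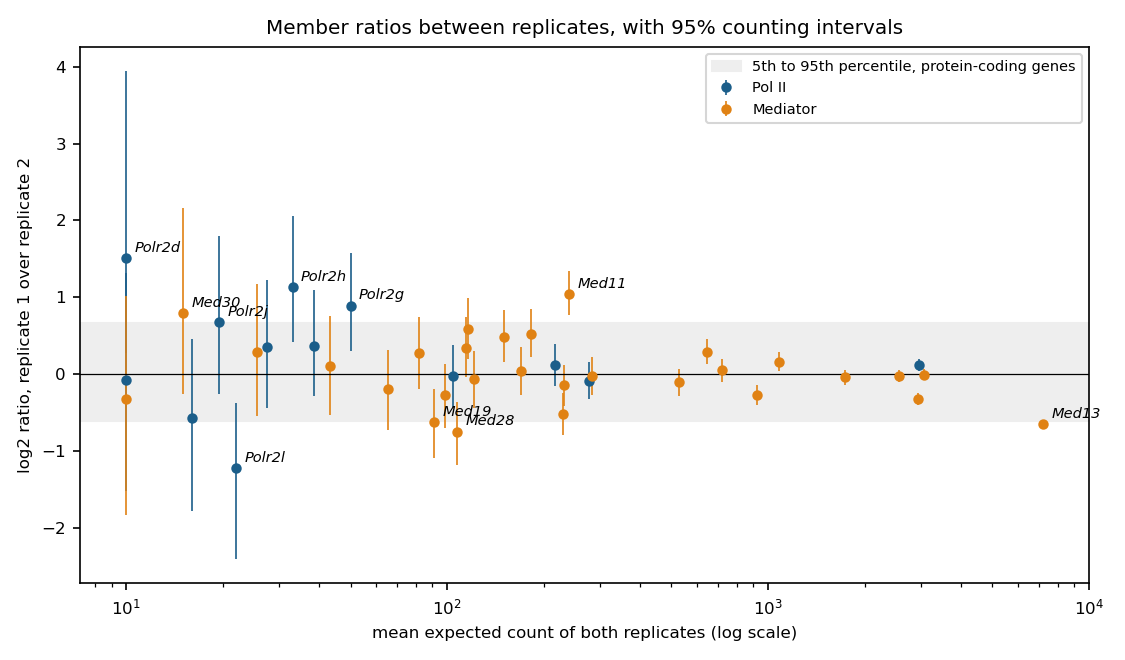
Log2 ratio, replicate 1 over replicate 2, of TMM-scaled counts against the mean expected count on a log scale for the 42 subunit genes with a mean of at least 10 counts, with 95% counting intervals. The grey band holds 5% to 95% of protein-coding genes, from -0.61 to 0.66; Med11 at 1.04 and Med13 at -0.65 lie outside it with narrow intervals.

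Values from the FASTQ-derived tables were lower than those of the alignment-based tables by a similar factor for the subunits and for other genes, with a median ratio of 0.652 for the 43 genes and 0.620 for the detected protein-coding genes. The 2 kinds of table differed more than 2-fold for 7 of the 43 genes. Among detected genes, they did so for 6 of the 36 subunit genes and for 1802 of the 8810 protein-coding genes. In the FASTQ-derived tables Polr2k had 2.66 and 3.06 TPM, above its alignment-based 1.34 and 1.23 TPM. Med18, described above, was 3.52 times its alignment-based mean. Med10 had 1.91 and 2.33 TPM, a mean ratio to the alignment-based value of 0.407. Med12, Polr2b, Polr2i and Med20 gave ratios of 0.498, 0.487, 0.478 and 0.495.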

How the data were processed

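Total RNA-seq of the nucleoplasmic fraction was deposited as a gene table and 2 transcript tables for each of 2 libraries of 1 group. Expected counts stand in the alignment-based tables and estimated counts in the FASTQ-derived ones, per the file headers, and neither need be whole. TPM values were deposited by the authors, scaled over every feature after correction for effective length. The bounds of the deposited TPM credibility interval were entered as a score, and no column of unknown sample was present (0). Coordinates follow mm10 and models GENCODE M21, as named in the labels and the deposited notes. For the aligner, quantifier and strand, nothing is given in the sources used here.

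The 26248 rows that name no gene held 0.000102% and 0.000103% of counts, 96 ERCC rows held 0%, and phiX held 0.672% and 0.196%. All were left out of the TMM ratios, but the totals of expected counts and the shares of those totals include them. Detection meant at least 1 TPM in both replicates, and log levels used a pseudocount of 1. Expected counts were rounded for edgeR 4.0.16 (R 4.3.3), which gave TMM-scaled log2 ratios with a prior count of 2 for genes averaging at least 10 counts. The procedure was checked on simulated data that held counting error only, with equal depth and balanced changes. That check does not cover a difference in composition between the libraries. Counting intervals are exact 95% binomial or Poisson intervals. Retained-intron shares use transcript models of that type. Exons were compared with all transcripts by BLAST 2.17.0. Other steps used Python 3.11.15 and pandas 2.3.3.

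The members, gene lists and the rule for fully described genes (extremes of each module, undetected members, paralogues, extremes of the retained-intron share and of the replicate ratio, and members that share sequence or position) were chosen with earlier results of these data known. Alternatives were other tables, length and library scalings, thresholds, pseudocounts and single replicates. With 1 group, no test between conditions was possible.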

Additional observations from a re-analysis of the deposited data

How the results depend on the processing

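No paired analysis was possible because the libraries form 1 group and no contrast exists. Leaving out replicate 1 or replicate 2 gave 5 and 5 genes with over 50% of TPM in retained-intron models, against 3 with both required. The FASTQ-derived tables gave 6 such genes, without Med24 and with Med4, Med16, Polr2b and Polr2f, a middle-module median of 1.71 TPM, a kinase-module median of 13.9 TPM and a log2 ratio of Med12 over Med12l of 3.50. The share of all protein-coding genes over 50% was not computed for single replicates or for the FASTQ-derived tables. Posterior mean TPM gave a tail median of 4.91 TPM and a Med12 over Med12l ratio of 4.34.

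Full model length in place of effective length raised medians to 6.08 TPM for all 43 genes, 3.29 for Pol II, 8.34 for Mediator, 8.59 for the head, 6.69 for the middle, 7.32 for the tail and 52.1 for the kinase module. The Pol II minus Mediator difference was then -1.15 and the Med12 over Med12l ratio 5.17. Scaling over nuclear-encoded protein-coding genes gave 14.8, 9.28, 20.8, 23.4, 15.7, 16.2 and 113 TPM in that same order, with -1.10 and 5.75. Protein-coding models alone, a choice made after the data were seen, gave medians of 2.94 TPM for Mediator, 2.25 for the head, 2.84 for the middle and 13.4 for the kinase module. The Pol II minus Mediator difference was then -0.45, and the paralogue ratios were 3.71 for Med12 over Med12l and 1.25 for Med13 over Med13l. A pseudocount of 0.1 gave -1.14 and 6.12 for the complex difference and the Med12 ratio, and detected members alone gave -1.12.

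At 5 TPM, 15 members were detected, and the share of all protein-coding genes at that threshold was not computed. By counts, retained-intron shares were 15.8% for all members, 1.41% for Pol II and 18.2% for Mediator, and over members with such a model 39.3%, 35.3% and 39.5% of TPM. Members higher in replicate 1 numbered 12 of 25 at a mean of at least 100 counts and 39 of 43 on the log2(TPM + 1) scale. In 68 further cases counts stayed within 1.5 times and other summary values within 1 SD. That SD was over the replicates, or over the 42 genes for the median ratio between replicates. By the latter SD of 0.53, a median of 0.50 on the log2(TPM + 1) scale, against 0.01, counted as unmoved. Detected members ranged from 31 to 43 in the 68 cases. Beyond these, single-gene TPM moved in 129 cases and stayed in 172. With 2 replicates, leaving 1 out always keeps a summary value other than a count within 1 SD. Such cases were therefore fixed in advance. The causes were not tested. Low counts limit Polr2d, Polr2i, Polr2j, Polr2k, Polr2l, Med18, Med30 and Med31 most, and 2 libraries of 1 donor identifier cannot give the spread between animals.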

Other observations

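The other nuclear RNA polymerases gave levels close to those of Pol II, whose 13 genes had a median of 2.06 ± 0.969 TPM. Of 6 subunits particular to Pol I, which transcribes ribosomal RNA, 5 were detected, with a median of 1.45 ± 0.258 TPM between 2.70 ± 0.665 for the largest subunit gene Polr1a and 0.465 ± 0.219 for Cd3eap. Both subunits common to Pol I and Pol III were detected, Polr1d at 5.72 ± 1.72 TPM and Polr1c at 4.13 ± 1.02 TPM. Of 11 subunits of Pol III, which transcribes transfer RNA and other small RNAs, 8 were detected, with a median of 2.71 ± 1.24 TPM. Polr3gl was the highest at 13.2 ± 1.75 TPM, and its paralogue Polr3g the lowest at 0.485 ± 0.00707 TPM. The largest subunit of Pol II stood far above its counterparts, with 22.4 ± 6.92 TPM for Polr2a against 5.13 ± 1.92 TPM for Polr3a and 2.70 ± 0.665 TPM for Polr1a.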
